A study of Populus trichocarpa and Populus tremula x Populus alba with 22 samples.

Results

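Potri.005G113400 is 1 of 42950 poplar gene IDs listed in the study's tables of normalized gene counts, and it was followed here through all 22 RNA-seq libraries. It was chosen from these data, for a level 278-fold higher in leaf and 279-fold higher in stem of plants overexpressing the transcription factor PtrbHLH011 and for a lower level in Fe-deprived leaves. It is therefore a candidate for the row that collects the reads of the transgene. The labels name PtrbHLH011 without a gene ID, the tables list IDs without gene names, and 0 IDs matched the RefSeq gene table used here, so the identity of the ID was not checked. Its fold changes in those 3 comparisons chose it and are given as a description, with no test. The 3rd internode under Fe deprivation took no part in the choice and is tested.

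In the overexpression experiment, leaf and stem came from a hybrid poplar, Populus tremula x Populus alba, at an age of 4 months. The plants carried either a PtrbHLH011 overexpression construct (3 leaf and 2 stem libraries) or an empty vector (3 leaf and 2 stem libraries). The overexpression libraries share the name stem DT6-1 and the empty-vector libraries the stem Ctrl2. The sources used here state neither the promoter of the construct nor how many independent lines were sampled. In the Fe experiment, Populus trichocarpa plants without a transgene label were grown hydroponically for 21 days at 0 µM Fe (Fe-deprived) or at 10 µM Fe (Fe-sufficient). Young leaf and 3rd internode came from the same 6 plants by their library codes, 3 plants per Fe level, which gives 3 libraries per tissue and Fe level. RNA kit, library type and sequencing platform differed between the experiments, so levels are compared within an experiment. Labelled tissues were not checked against marker genes, since no ID is paired with a name. For the overexpression experiment the labels do not say whether replicate libraries came from separate plants, and p-values there may reflect technical spread.

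Basic helix-loop-helix (bHLH) proteins are transcription factors that bind DNA as dimers through a basic region next to the helix-loop-helix fold. Several members of the family regulate the response of plants to Fe shortage. In Arabidopsis thaliana, bHLH011 is known as a negative regulator of Fe uptake genes. Fe itself is needed in chloroplasts for photosynthetic electron transport and chlorophyll synthesis, and young leaves are a strong sink for it.

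The deposited values are gene counts after the authors scaled each library by its size factor, called normalized counts below. Undoing that scaling returned whole reads, and from these CPM (reads per 1000000 reads of the library). Library totals were 26620695 to 30101710 reads in the overexpression experiment and 29840597 to 68689878 in the Fe experiment. The 4 tables were normalized separately, so CPM is used whenever levels of different tissues are set side by side, and no such level was tested.

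Overexpression leaves carried the highest level of Potri.005G113400. The 3 overexpression leaves had 4368, 2663 and 3577 CPM, against 9.30, 11.2 and 12.2 CPM in the 3 empty-vector leaves. The groups lay far apart, and the spread within each was small beside the gap: the highest overexpression leaf was 1.49 times the lowest, and the highest empty-vector leaf 1.40 times the lowest. In normalized counts the means were 91888 ± 18168 in overexpression leaves and 330.2 ± 54.3 in empty-vector leaves (SD, n = 3 each), a ratio of 278. Any overexpression leaf set against any empty-vector leaf gave a ratio between 195 and 404. The transcript made up 0.354 ± 0.0853% of all reads in overexpression leaves and 0.00109 ± 0.000147% in empty-vector leaves (SD, n = 3 each).

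Stem showed the same picture at a lower level. The overexpression stems had 1852 and 1789 CPM, against 6.78 and 5.77 CPM in the empty-vector stems. The 2 overexpression stems stood close to each other and neither came near the empty-vector range. In normalized counts the means were 53042 ± 2495 in overexpression stems and 189.9 ± 27.2 in empty-vector stems (SD, n = 2 each), a ratio of 279, with single pairs of libraries between 245 and 321. The level was thus higher in leaf than in stem in both genotypes. Overexpression leaf stood at 1.94 times overexpression stem in mean CPM, and empty-vector leaf at 1.73 times empty-vector stem. On the log2(value + 1) scale the changes were 8.11 in leaf and 8.12 in stem. The ratios were less alike in mean CPM, at 325 in leaf and 290 in stem.

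**Figure D1:**
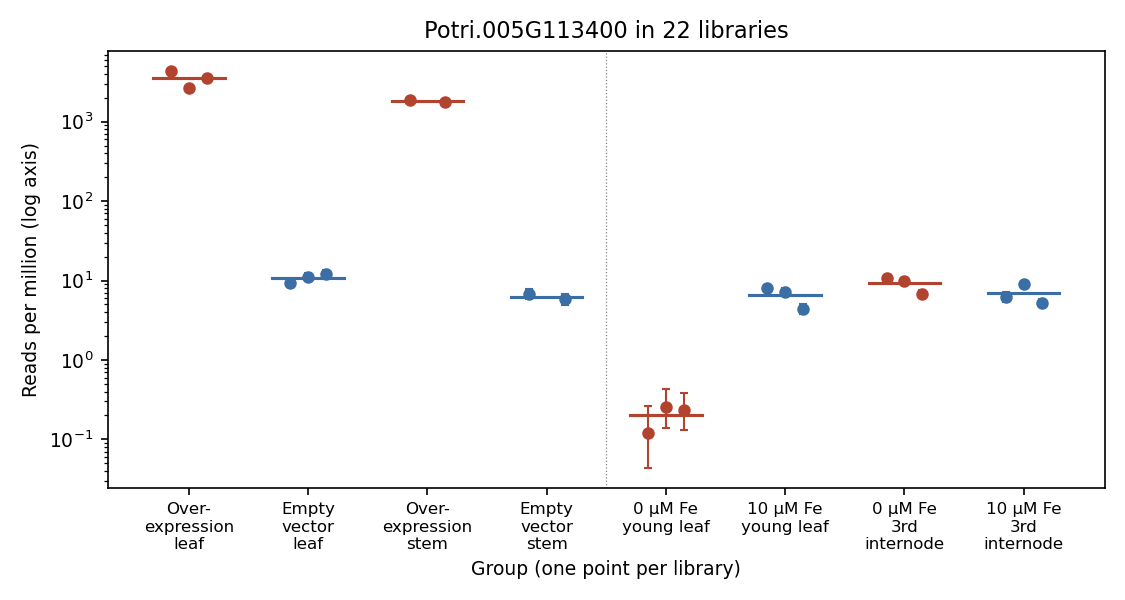
CPM of Potri.005G113400 in each of the 22 libraries (log axis), by group. Points are libraries with 95% exact binomial intervals, which cover counting error only, and lines are group means. Overexpression libraries lie between 1789 and 4368 CPM, Fe-deprived young leaves between 0.120 and 0.258 CPM, and all other groups between 4.36 and 12.2 CPM.

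Counting error lay below the replicate SD in overexpression and empty-vector libraries. Between 53257 and 116282 reads lay behind each overexpression library, which gives a counting error of at most 0.433%, while the replicate SD was 19.8% of the mean in leaf and 4.70% in stem. Empty-vector libraries held 169 to 352 reads, with a counting error of at most 7.69% and a replicate SD of 16.4% in leaf and 14.3% in stem.

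Large changes in overexpression plants were more numerous in leaf than in stem, and most were not shared by both tissues. Of 42950 genes listed, ratios of group means reached 16-fold for 295 in leaf, for 57 in stem and for 6 in both. At 64-fold the counts were 48 in leaf, 7 in stem and 2 in both. The smaller of the leaf and stem folds was 278 for Potri.005G113400 and 64.3 for the other gene at 64-fold. An empty-vector mean under 3 reads per library was set to that floor, so these folds are lower bounds for such genes.

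That other gene was Potri.016G001450. It had 253 ± 422 normalized counts in overexpression leaves and 3.94 ± 5.16 in empty-vector leaves (SD, n = 3 each). In stem it had 370 ± 513 in overexpression libraries and 0 reads in both empty-vector libraries, at least 121-fold higher. Its SD exceeded its mean among overexpression libraries of both tissues, unlike that of Potri.005G113400. On the log2(value + 1) scale it no longer reached 64-fold in both tissues.

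**Figure D2:**
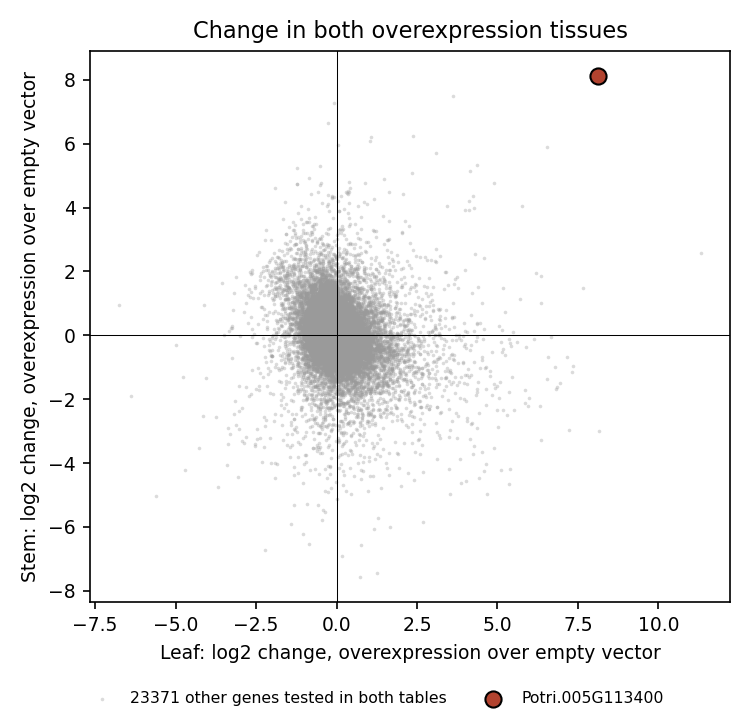
Log2 change (overexpression over empty vector, from normalized counts + 1) in leaf and in stem for genes tested in both tables. Grey points are 23371 other genes and the red point is Potri.005G113400, at 8.11 in leaf and 8.12 in stem, in the upper right corner.

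Potri.005G113400 was not the largest change in either tissue taken alone. Among 27024 genes tested in leaf it ranked 6 by log2 change, and among 24810 tested in stem it ranked 2. The 5 genes above it in leaf, named after their values were seen, were Potri.008G099900, Potri.018G098200, Potri.T131500, Potri.001G255100 and Potri.006G129900. In stem none of these 5 was 16-fold higher. Potri.008G099900 had the largest leaf change, with 19302 ± 2672 normalized counts in overexpression leaves and 6.58 ± 0.992 in empty-vector leaves (SD, n = 3 each). In stem it had 63.5 ± 5.41 in overexpression and 10.2 ± 4.43 in empty-vector libraries (SD, n = 2 each). Potri.018G098200 had 5641 ± 1697 in overexpression leaves and 20.7 ± 35.8 in empty-vector leaves (SD, n = 3 each), and 0 reads in all 4 stem libraries. Potri.006G129900 went opposite ways, with 511 ± 321 in overexpression and 1.02 ± 1.76 in empty-vector leaves (SD, n = 3 each), but 117 ± 49.3 in overexpression and 895 ± 36.5 in empty-vector stems (SD, n = 2 each). The gene above it in stem, Potri.T155100, had 721 ± 36.7 in overexpression stems and 0 reads in both empty-vector stems (n = 2 each), and 0 reads in all 6 leaf libraries.

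In Fe-deprived young leaves Potri.005G113400 was close to its detection limit. The 3 Fe-deprived leaves had 0.120, 0.258 and 0.233 CPM, from 6, 14 and 16 reads, against 7.97, 7.16 and 4.36 CPM in the 3 Fe-sufficient leaves, from 429, 343 and 205 reads. The highest Fe-deprived leaf lay well below the lowest Fe-sufficient leaf. Normalized counts averaged 10.2 ± 3.60 in Fe-deprived leaves and 361 ± 94.7 in Fe-sufficient leaves (SD, n = 3 each), so that 2.84% of the Fe-sufficient level was left. The Fe-sufficient mean was 35.2 times the Fe-deprived mean, and single pairs of libraries gave 19.8 to 70.5 times. On the log2(value + 1) scale the change was -5.03. With so few reads counting error was large in the Fe-deprived leaves, up to 40.8% of a library's value, beside a replicate SD of 35.2% of the mean. Fewer cells expressing the gene and less RNA per cell cannot be told apart in bulk tissue.

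The 3rd internode of the same plants gave a different level. Fe-deprived internodes had 497, 451 and 314 normalized counts and Fe-sufficient internodes 297, 443 and 300. The groups overlapped, with 1 Fe-deprived internode below the highest Fe-sufficient one. The means were 421 ± 95.2 in Fe-deprived and 347 ± 83.3 in Fe-sufficient internodes (SD, n = 3 each). The log2 change was 0.28 ± 0.26 (SE), with an interval at 95% from -0.34 to 0.90, that is 0.788 to 1.87 times the Fe-sufficient level. It did not pass limma's test (adjusted p = 0.603). Over all 29219 genes tested there 0.712% passed. An exact permutation test of the difference in means, two-sided, gave p = 0.2, where 0.1 is the smallest that 3 against 3 allows. The difference between the tissues was not tested, because the leaf change chose the gene.

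Within plants the contrast between the tissues was visible in each Fe-deprived plant. Plants P7, P22 and P30 had 0.120, 0.258 and 0.233 CPM in leaf and 6.77, 10.9 and 9.87 CPM in internode, so the internode exceeded the leaf 56.4-fold, 42.2-fold and 42.4-fold. In the Fe-sufficient plants P11, P13 and P17 the leaf had 7.97, 7.16 and 4.36 CPM and the internode 6.23, 9.13 and 5.26 CPM. There the leaf stood at 1.28, 0.785 and 0.829 times the internode, with no common direction. P7 had the lowest level of the 3 Fe-deprived plants in both tissues, and P17 the lowest of the 3 Fe-sufficient plants in both tissues.

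**Figure D3:**
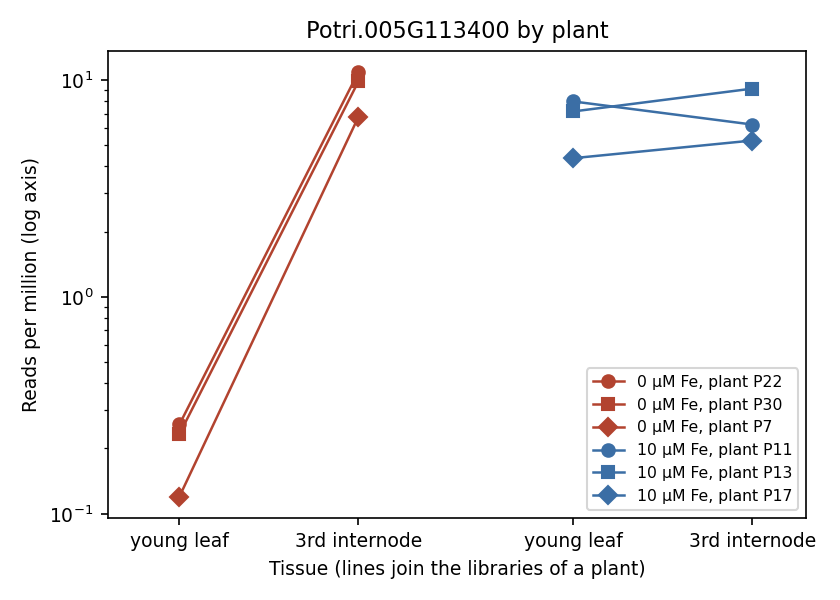
CPM of Potri.005G113400 in young leaf and 3rd internode of the 6 plants of the Fe experiment (log axis). Lines join the 2 libraries of a plant. The 3 Fe-deprived plants run from at most 0.258 CPM in leaf to at least 6.77 CPM in internode, while the Fe-sufficient lines stay between 4.36 and 9.13 CPM.

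Other genes also combined a large leaf change with little change in the internode. Of 28632 genes tested in young leaf, 37 had a more negative log2 change. Of these 37, 18 were also lower by at least 1 on the log2 scale in Fe-deprived internodes, and 8 lay within 0.5 of no change there. No filter on low internode values was applied to the 37, so a gene with few internode reads can count as little changed. Among the 27351 genes tested in both tissues, 86 were at least 16-fold lower in Fe-deprived leaves on the log2(value + 1) scale, Potri.005G113400 among them. Of these 86, 22 lay within 0.5 of no change in the internode and 45 were lower there by at least 1, with a median internode change of -1.03.

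**Figure D4:**
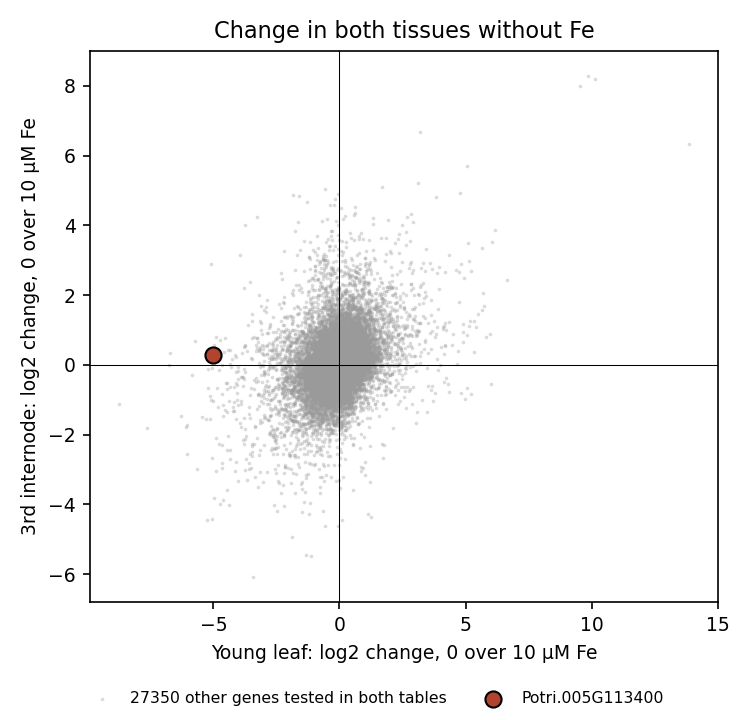
Log2 change (0 over 10 µM Fe, from normalized counts + 1) in young leaf and in 3rd internode for genes tested in both tables. Grey points are 27350 other genes and the red point is Potri.005G113400, at -5.03 in leaf and 0.28 in internode, left of most genes and close to the line of no internode change.

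Ordered by mean CPM, the groups ran from Fe-deprived leaf at 0.204 ± 0.0736 through empty-vector stem at 6.27 ± 0.711, Fe-sufficient leaf at 6.50 ± 1.89, Fe-sufficient internode at 6.87 ± 2.01, Fe-deprived internode at 9.17 ± 2.15 and empty-vector leaf at 10.9 ± 1.47, up to overexpression stem at 1820 ± 44.3 and overexpression leaf at 3536 ± 853 (SD, n = 3, but n = 2 in stem). The 5 groups from empty-vector stem to empty-vector leaf formed a run in which each overlapped the next in its range of libraries. Fe-deprived leaf, overexpression stem and overexpression leaf overlapped no neighbour in this order. The order crosses experiments with different library preparation, which cannot be told apart from species or age there.

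Genes with the most similar pattern were sought over the 12 Fe libraries, by the Pearson correlation of log2(value + 1) centred on each table. Of 25097 genes compared, 12 had an r above 0.95 and 9 an r below -0.95. The libraries of a group and the leaf difference itself are shared by all of them, so r is a description. The highest r, 0.969 over 12 libraries, was that of Potri.002G005000. It had 38.3 ± 11.1 normalized counts in Fe-deprived and 314 ± 30.3 in Fe-sufficient leaves, and 386 ± 29.7 in Fe-deprived and 391 ± 61.0 in Fe-sufficient internodes (SD, n = 3 each). Like Potri.005G113400 it was low only in Fe-deprived leaves among these 4 groups. In overexpression leaves it had 11.5 ± 1.88, against 52.5 ± 4.89 in empty-vector leaves (SD, n = 3 each). In stem the difference was smaller, with 405 ± 53.4 in overexpression and 500 ± 78.2 in empty-vector libraries (SD, n = 2 each). The next gene, Potri.012G024700 with an r of 0.968, had 570 ± 202 in Fe-deprived and 3125 ± 334 in Fe-sufficient leaves (SD, n = 3 each). It stood lower in overexpression stems, at 470 ± 136, than in empty-vector stems, at 2093 ± 380 (SD, n = 2 each). In leaf the groups overlapped, at 976 ± 299 in overexpression and 1547 ± 560 in empty-vector libraries (SD, n = 3 each).

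The most opposite pattern in the Fe libraries was that of Potri.005G198900, with an r of -0.977. It had 5663 ± 1680 normalized counts in Fe-deprived and 1088 ± 126 in Fe-sufficient leaves, and 2800 ± 349 in Fe-deprived and 3365 ± 1089 in Fe-sufficient internodes (SD, n = 3 each). In overexpression leaves it was at 2168 ± 326, against 517 ± 116 in empty-vector leaves (SD, n = 3 each). Its Fe values chose it, so they are no separate result. The overexpression and empty-vector groups did not overlap in leaf and overlapped in stem. How many of all genes had no overlap in leaf was not counted. By limma's test, a different measure, 21.3% of all 27024 genes passed in leaf. Potri.012G017300, with an r of -0.972, differed less, at 1366 ± 43.0 in Fe-deprived and 801 ± 50.6 in Fe-sufficient leaves (SD, n = 3 each). Its overexpression and empty-vector groups overlapped in leaf, at 461 ± 12.3 and 474 ± 49.7 (SD, n = 3 each). In stem it had 223 ± 42.4 in overexpression and 130 ± 27.3 in empty-vector libraries (SD, n = 2 each).

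Over the 10 overexpression libraries, 65 of 21212 genes had an r above 0.95 and 52 an r below -0.95. The most similar was Potri.005G025800 with an r of 0.992. Its change was far smaller, 1317 ± 128 normalized counts in overexpression and 652 ± 25.1 in empty-vector leaves (SD, n = 3 each) and 1245 ± 10.4 in overexpression and 607 ± 28.8 in empty-vector stems (SD, n = 2 each). Potri.T094300, with an r of 0.990, had 821 ± 29.3 in overexpression and 547 ± 17.4 in empty-vector leaves (SD, n = 3 each). The most opposite were Potri.008G149900 and Potri.009G101232, each with an r of -0.990. Potri.008G149900 had 885 ± 15.6 in overexpression and 1200 ± 15.7 in empty-vector leaves (SD, n = 3 each). Potri.009G101232 had 211 ± 33.0 in overexpression and 669 ± 71.4 in empty-vector leaves (SD, n = 3 each), and 104 ± 4.82 in overexpression and 404 ± 33.8 in empty-vector stems (SD, n = 2 each). These genes matched Potri.005G113400 in the consistency of their change across libraries, not in its size.

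The loci nearest to Potri.005G113400 by ID number, 10 below and 10 above, were chosen without regard to their values and are tested. In poplar gene IDs the number orders loci along a chromosome. The neighbours did not share the large difference in overexpression plants. In overexpression leaves 15 of the 20 passed the filter on low values, and by limma's test 3 of these rose, 2 fell and 10 did not pass. With limma's sample weights 6 of the 15 were higher and 3 lower, where 12199 of 27024 genes passed. With quantile normalization 2 were higher and 1 lower, where 5819 of 27024 genes passed. A filter at 50 left 11 neighbours, 2 higher and 1 lower, where 5059 of 22578 genes passed. Without these changes 21.3% of all 27024 genes tested in overexpression leaves passed limma's test, 12.7% higher and 8.61% lower. The log2 changes of the 15 neighbours lay between -2.09 and 2.21 with a median of 0.00081, beside a median of -0.0019 over all genes tested. In overexpression stems 13 were tested, of which 1 rose, 2 fell and 10 did not pass, where 37.2% of 24810 genes passed, 20% higher and 17.2% lower. Their changes lay between -0.67 and 1.96, with a median of 0.38, beside -0.0033 over all genes tested.

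The loci on either side of Potri.005G113400 were hardly expressed in these plants. Potri.005G113301, the nearest below, had 7 reads over the 3 overexpression leaves and 9 over the 3 empty-vector leaves. Potri.005G113500, the nearest above, had 0 reads in all 10 overexpression and empty-vector libraries. Potri.005G113600, the next one above, rose in leaf to 1208 ± 457 normalized counts in overexpression libraries, against 429 ± 33.9 in empty-vector libraries (n = 3 each, log2 change 1.42 ± 0.27 SE, limma adjusted p = 0.00975). In stem it fell to 291 ± 8.68 in overexpression libraries, against 466 ± 15.7 in empty-vector libraries (n = 2 each, log2 change -0.67 ± 0.12 SE, limma adjusted p = 0.0109). Potri.005G114100 went the other way, falling in leaf (log2 change -2.09 ± 0.58 SE, limma adjusted p = 0.0399) and rising in stem (log2 change 1.96 ± 0.27 SE, limma adjusted p = 0.00500). The other loci that rose in leaf were Potri.005G113200 (limma adjusted p = 0.0154), with 52 reads over the overexpression and 8 over the empty-vector leaves, and Potri.005G113100 (log2 change 2.13 ± 0.57 SE, limma adjusted p = 0.0342). Potri.005G112900 fell in leaf to 30755 ± 4784 in overexpression libraries, against 55852 ± 8048 in empty-vector libraries (n = 3 each, limma adjusted p = 0.0327). Potri.005G114300 fell in stem (log2 change -0.48 ± 0.09 SE, limma adjusted p = 0.0108). All 5 leaf calls were lost without overexpression replicate 3, and those of Potri.005G112900, Potri.005G113100 and Potri.005G114100 also in 3 or 4 of the other 5 fits without a library. Quantile normalization ended the leaf calls of Potri.005G112900 and Potri.005G113200 (limma adjusted p = 0.333 and 0.0736), and edgeR's quasi-likelihood test that of Potri.005G113100 (adjusted p = 0.0520). All 3 stem calls were lost without either overexpression library, and that of Potri.005G113600 also without empty-vector replicate 1.

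Under Fe deprivation the number of neighbours called depended on the test. In young leaf 16 of the 20 were tested, of which 1 rose, 1 fell and 14 did not pass, or 12.5% called, where 6.31% of 28632 genes passed, 3.04% higher and 3.27% lower. DESeq2 on recovered reads called 1 as higher and 6 as lower, where it called 4744 of all 28632 genes. Limma with sample weights called 1 as higher and 7 as lower, where it called 6530 of all genes. At an unadjusted p of 0.05 limma, edgeR and DESeq2 each had 1 higher and 7 lower. Over all 28632 genes they had 7197, 7298 and 7801 at that threshold. The 6 that DESeq2 called lower, named after their values were seen, were Potri.005G112900, Potri.005G113000, Potri.005G113600, Potri.005G113700, Potri.005G113900 and Potri.005G114000. Potri.005G113100 rose to 590 ± 128 normalized counts in Fe-deprived leaves, against 61.5 ± 1.30 in Fe-sufficient leaves (n = 3 each, log2 change 3.22 ± 0.24 SE, limma adjusted p = 0.00204). Potri.005G112900 fell to 41191 ± 3085 in Fe-deprived leaves, against 73933 ± 8939 in Fe-sufficient leaves (n = 3 each, limma adjusted p = 0.0473), a call that held when Fe-deprived replicate 1 was left out and was lost in the other 5 leave-one-out fits. The call was also lost with a pseudocount of 5, without a filter on low values, and with upper-quartile or quantile normalization (limma adjusted p = 0.0504 to 0.0966). The nearest expressed locus, Potri.005G113301, had 38.9 ± 9.24 in Fe-deprived and 77.9 ± 22.8 in Fe-sufficient leaves (n = 3 each) and did not pass (limma adjusted p = 0.167). The median log2 change of the tested neighbours was -0.55, beside -0.0065 over all genes tested.

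In the 3rd internode 16 neighbours were tested, of which 1 rose, 0 fell and 15 did not pass, or 6.25% called, where 0.712% of all genes passed, 0.448% higher and 0.264% lower. Their median log2 change was -0.26, beside 0.014 over all genes tested. The locus that rose was Potri.005G112600, with 3068 ± 360 normalized counts in Fe-deprived and 931 ± 222 in Fe-sufficient internodes (n = 3 each, log2 change 1.74 ± 0.21 SE, limma adjusted p = 0.0372). Its call was lost without Fe-sufficient replicate 2 or any 1 Fe-deprived library. On recovered reads edgeR's quasi-likelihood test called 0 of the 16, while DESeq2 called 2 as higher and 4 as lower. Limma with sample weights called 1 as higher and 3 as lower. Over all 29219 genes edgeR called 97, DESeq2 3328 and limma with sample weights 1485. At an unadjusted p of 0.05 limma, edgeR and DESeq2 each had 2 higher and 5 lower. Over all 29219 genes they had 5547, 5598 and 6659 at that threshold. Deviations of same-numbered internode libraries correlated at 0.27, 0.12 and 0.48. Fe-deprived replicate 2 correlated more with Fe-sufficient replicate 1 (0.18) than with its own number. With the replicate number as a block limma called 4 of the 16, 1 higher and 3 lower, and 401 of all 29219 genes. The block rests on these correlations, not on labels, so calls made only with it are a description. Replicate number 1 joins plants P22 and P11 in the internode, but P7 and P11 in young leaf. The 3 lower loci, named after their values were seen, were Potri.005G113700, Potri.005G113900 and Potri.005G114000, at log2 changes of -2.12, -1.96 and -2.05 (limma adjusted p = 0.0305, 0.0305 and 0.0345 with the block, and 0.0523, 0.0572 and 0.0582 without it). In young leaf the same loci had log2 changes of -2.50, -2.34 and -2.30 and did not pass (limma adjusted p = 0.0803, 0.0530 and 0.0564). Potri.005G113400 itself did not pass with the block either (limma adjusted p = 0.505).

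**Figure D5:**
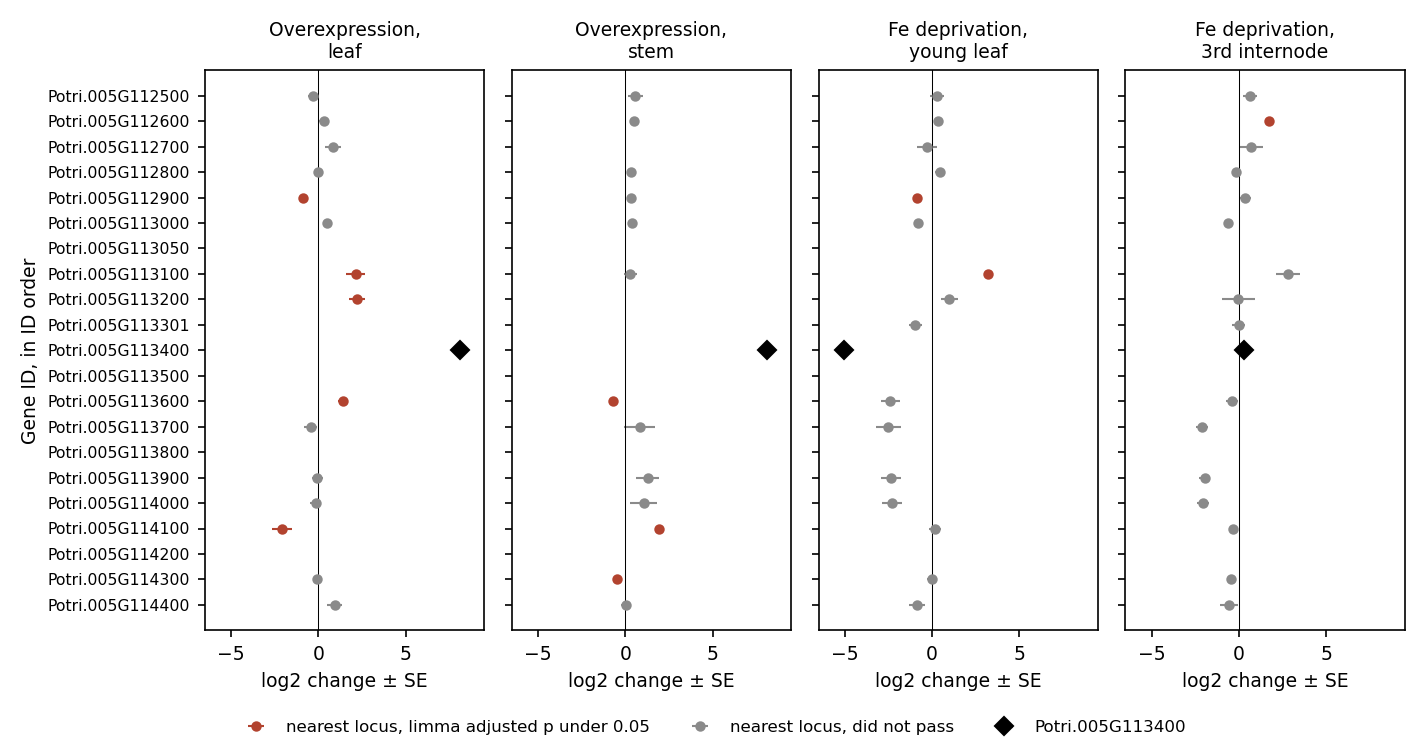
Log2 change ± SE of Potri.005G113400 (black diamonds) and of the tested ones among the 20 loci nearest by ID number, in the 4 comparisons. Red points passed limma's test at an adjusted p of 0.05 and grey points did not. In overexpression leaf and stem no neighbour exceeds a log2 change of 2.21, while Potri.005G113400 stands at 8.11 and 8.12.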

How the data were processed

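The 4 tables of normalized gene counts, 1 per comparison, were read. Per the submitters' processing notes DESeq2 2.11.40.7, HISAT2 2.2.1 and StringTie 2.2.1 were used, without stated roles. The gene IDs carry a version ending. The genome build, annotation and treatment of strand and gene copies are not otherwise stated in the sources used here. Reads of a construct and of the plant's own copy therefore share a row and cannot be told apart. Populus trichocarpa and the hybrid were counted on the same 42950 IDs. An effect of this on the ratios was not tested. The values the authors deposited are a signal, gene counts divided by a size factor per library; 100% of them were whole multiples of a step within 0.001, and these multiples are called reads, though they may be rounded estimates. They rest on 26620695 to 68689878 reads per library. Intervals cover counting error only.

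Tests were limma 3.58.1 (R 4.3.3, mean-variance trend, two-sided) on log2(value + 1), fitted on each whole table over genes that reached a value of 10 in at least the number of libraries of the smaller group, with Benjamini-Hochberg adjustment over that table and a threshold of 0.05. Alternatives included edgeR 4.0.16 and DESeq2 1.42.0 on recovered reads. On simulated internode counts limma called 60.5% of genes changed by 2 on the log2 scale and 7.69% of those changed by 1 (28912 genes). Far fewer genes were changed there than the 5547 that had an unadjusted limma p under 0.05 in the real internode. Noise was drawn for each gene separately, so these shares need not hold for the real libraries. The main fits took no libraries as paired in any comparison. A block by replicate number was an alternative setting only. In the internode the deviations of same-numbered libraries correlated at 0.27, 0.12 and 0.48. This comes from the data, not the labels, and Fe-deprived replicate 2 correlated more with Fe-sufficient replicate 1 (0.18). In overexpression leaf the correlations were 0.29, 0.047 and 0.11. Both internode replicate 3 libraries carry sample numbers apart from all others and a library name field. Whether they were made separately is not stated. The gene and the lists were chosen with earlier results of these data known. Named genes follow a rule: the gene, its 20 nearest loci by ID number (the adjoining ones and at most 2 rising and 2 falling per comparison), the 2 highest and 2 lowest correlations per experiment among genes with a mean of at least 50, and the counts of large folds; exceptions are marked. Sequences, gene names and lists of Fe or tissue genes were not used here.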

Additional observations from a re-analysis of the deposited data

How the results depend on the processing

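The log2 change of Potri.005G113400 kept its direction in all 4 comparisons under the 10 alternatives and without any 1 library. It ran from 8.09 to 8.55 in overexpression leaf, from 8.08 to 8.31 in overexpression stem, from -5.16 to -4.58 in Fe-deprived leaf and from 0.16 to 0.36 in Fe-deprived internode. The highest values in overexpression leaf (8.55) and stem (8.31) came from quantile normalization and moved by more than the replicate SD; the cause was not tested. Without 1 library the ranges were 7.97 to 8.25, 7.98 to 8.27, -5.27 to -4.73 and 0.14 to 0.48. In the internode no alternative passed, with limma, edgeR or DESeq2 adjusted p between 0.498 and 0.766, and between 0.371 and 0.890 without 1 library. Counts of genes called varied more. The 1807 calls in Fe-deprived leaf became 6530 with sample weights, 4744 with DESeq2 and 343 with a replicate block, and 230 to 3165 without 1 library, a shift of over 1.5 times for each library but Fe-sufficient replicate 1. The 208 in Fe-deprived internode became 1485 with sample weights, 97 with edgeR, 3328 with DESeq2 and 401 with a replicate block, and 0 to 1499 without 1 library: 1499 without Fe-sufficient replicate 1, 1090 without replicate 3 and 0 without any other, where limma had 3205 to 5737 genes at an unadjusted p of 0.05. The 5760 in overexpression leaf became 12199 with sample weights and 2739 to 5704 without 1 library, with 2739 without overexpression replicate 3 and 3442 without empty-vector replicate 2. The 9230 in overexpression stem became 0 to 7233 without 1 library: 0 without either overexpression library, with 7408 and 7846 genes at an unadjusted limma p of 0.05, and 6061 without empty-vector replicate 1. The lone library left in a group is assumed to vary like the other group. With quantile normalization 2977 genes were higher and 2842 lower in overexpression leaf, against 3434 and 2326 as deposited. No main fit took same-numbered libraries as paired. Outside the internode a replicate block ended the call of Potri.005G112900 in Fe-deprived leaf (limma adjusted p = 0.127). It added Potri.005G113900 (0.0194) and Potri.005G114000 (0.0207) in Fe-deprived leaf, and Potri.005G113900 in overexpression stem (0.0409). Outside the internode it changed no other call among the gene and its nearest loci. Among the nearest loci the number called was 1 to 5, 0 to 4, 0 to 5 and 0 to 5 without 1 library in Fe-deprived leaf, Fe-deprived internode, overexpression leaf and overexpression stem. In Fe-deprived leaf 6 to 16 reads per library limit the precision of the level.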
